A study of Homo sapiens with 6 samples.

Results

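The 10 genes described here are 7 lncRNA genes and 3 pseudogenes that lie inside a longer protein-coding gene, called the host below, and that had among the largest increases after silencing of PSF in human SH-SY5Y cells. They were chosen by their own values in this contrast, namely a large siPSF to siControl difference in the read counts, together with their place inside a host, so their levels and fold changes are given as a description without a test. They are 10 of 955 tested noncoding genes (lncRNA genes and pseudogenes) inside a protein-coding gene, and of 19694 tested genes in a table of 21301. Their hosts were given by position and not by their own values, so the hosts were tested.

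SH-SY5Y is a neuroblastoma line from the sympathetic nervous lineage, and both groups were the same line, grown in the same medium. Cells received siControl or siPSF at 10 nM for 72 h, with 3 libraries per group that the study calls biological triplicates. A single siRNA against PSF was used in a single cell line, and the knockdown was partial: SFPQ, the gene for PSF, was left at 50.2% of its siControl level (log2 fold change of siPSF against siControl, hereafter log2 change, -0.99, adjusted p = 9.5e-05 by the quasi-likelihood test of edgeR, with p-values adjusted by the Benjamini-Hochberg method). The libraries were made from poly(A) RNA and summed to between 101540520 and 132420931 counts over the genes of the table.

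PSF is a nuclear RNA-binding protein of the family that also holds NONO and PSPC1, and it acts in transcription, splicing and the handling of transcripts in the nucleus. Introns of long genes hold many lncRNA genes and pseudogenes, the latter being copies of other genes that have usually lost their coding function. Intronic sequence is normally removed with the rest of the intron and degraded in the nucleus, but an RNA that ends at a poly(A) site inside the intron can be kept, either as a short form of the host transcript or as a separate RNA.

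All 10 genes lay wholly within 1 intron of the canonical GENCODE transcript of their host, 3 of them in the first intron. The following positions are those of RefSeq on GRCh38.p14. LOC105376266 (chr9:123567256-123582433) lay in intron 12 of DENND1A, 735 bases past the exon before it. LOC105378560 (chr10:129708050-129717867) lay in intron 3 of MGMT, and LOC105374333 (chr2:26060511-26093853) in intron 1 of RAB10. LOC107984993 (chr17:57549333-57574828) lay in intron 7 of MSI2, and LOC105376033 (chr9:37161189-37187002) in intron 2 of ZCCHC7. LOC105374296 (chr3:195149271-195151310) lay in intron 3 of XXYLT1, and LOC112268227 (chr1:65311244-65322859) in intron 1 of DNAJC6. The pseudogenes were LOC645965 (chr1:153851622-153853451) in intron 1 of GATAD2B, CAP2P1 (chr14:89289998-89291673) in intron 3 of FOXN3 and HMGB1P41 (chr8:80812080-80812462) in intron 2 of ZNF704. The introns were long, from 25.5 kb in DENND1A to 175.2 kb in ZCCHC7, and the hosts spanned 104 to 550 kb. CAP2P1, HMGB1P41 and LOC105378560 are annotated on the strand of their host, LOC645965 reads as a copy of its parent on the strand of GATAD2B, and the sources used here gave no strand for the other 6 genes.

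**Figure D1:**
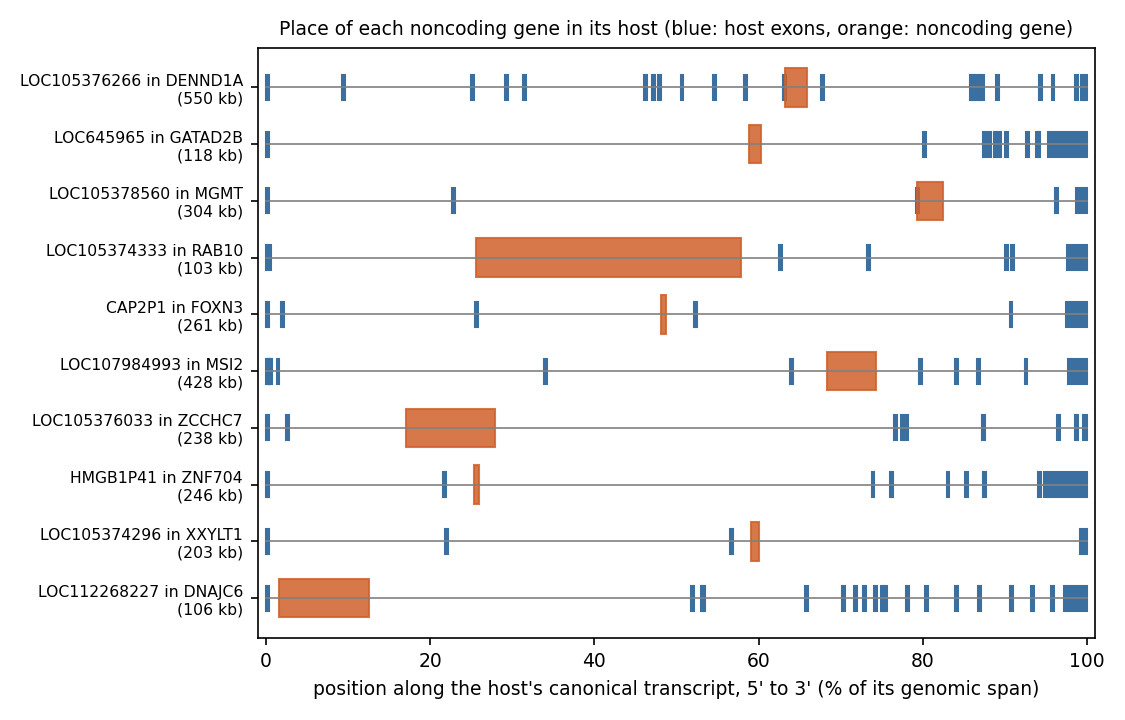
Each row is the canonical transcript of a host drawn 5′ to 3′, with position as a percentage of its genomic span (given in kb). Blue boxes are host exons, orange boxes are the 10 noncoding genes, and narrow boxes are widened to be visible. No orange box overlaps an exon on the scale of the annotation, although the genes in DENND1A and MGMT lie close behind one.

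LOC105376266 had the highest CPM (the read count scaled to library size by edgeR's TMM method) of the 10, although not the highest level per length, where its mean of 0.738 FPKM in siPSF was below the 1.81 FPKM of HMGB1P41 and the 1.57 FPKM of LOC105374333. Its level was 0.592, 0.667 and 0.834 CPM in siControl and 4.87, 4.57 and 4.89 CPM in siPSF. The siPSF libraries were close to each other and far above the siControl libraries. The fitted log2 fold change was 2.77 (standard error 0.18), and the ratio of summed counts was 6.84, with a 95% interval of 6.0 to 7.82 that covers counting error only, as do the intervals below. The interval is narrow because the gene had 266 counts over the siControl and 1542 over the siPSF libraries.

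The lncRNA genes in MGMT, RAB10, MSI2 and ZCCHC7 formed a middle group. LOC105378560 had 0.115, 0.157 and 0.183 CPM in siControl and 1.18, 1.66 and 1.48 CPM in siPSF, with a log2 change of 3.23 and a count ratio of 9.38 (95% interval 7.12 to 12.5). LOC105374333 had 0.206, 0.150 and 0.199 CPM in siControl and 1.44, 1.34 and 1.34 CPM in siPSF, with a log2 change of 2.89 and a count ratio of 7.48 (95% interval 5.81 to 9.77). In both, every siPSF library lay far above every siControl library, and the RAB10 gene was the more even of the pair within siPSF. LOC107984993 had 0.271, 0.232 and 0.381 CPM in siControl and 1.60, 1.49 and 2.29 CPM in siPSF, with a log2 change of 2.60 and a count ratio of 6.04 (95% interval 4.92 to 7.46). LOC105376033 had 0.206, 0.180 and 0.214 CPM in siControl and 1.24, 0.871 and 1.41 CPM in siPSF, with a log2 change of 2.55, the lowest of the 10, and a count ratio of 5.87 (95% interval 4.58 to 7.61). In these genes the third siPSF library was the highest, and the groups did not overlap.

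The remaining 2 lncRNA genes were rare in siControl. LOC105374296 in XXYLT1 had 3, 6 and 3 counts in the siControl libraries and 63, 39 and 92 counts in the siPSF libraries, or a mean of 0.0312 ± 0.0120 CPM (SD, n = 3) against 0.611 ± 0.290 CPM (SD, n = 3). Its log2 change of 4.23 (standard error 0.49) was the largest of all 19694 tested genes, but its count ratio of 19.1 had a 95% interval from 10.7 to 37.6. LOC112268227 in DNAJC6 had 4, 5 and 7 counts in siControl and 40, 48 and 45 counts in siPSF, with a log2 change of 3.27 and a count ratio of 9.81 (95% interval 5.82 to 17.7). For both genes the groups were well apart while the size of the difference was poorly fixed by so few siControl reads.

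Among the pseudogenes, LOC645965 had the highest CPM, while per length HMGB1P41 was higher, with a mean of 1.81 FPKM against 1.39 FPKM in siPSF. It had 0.312, 0.420 and 0.326 CPM in siControl and 3.08, 3.55 and 2.01 CPM in siPSF, with a log2 change of 3.03 and a count ratio of 8.21 (95% interval 6.84 to 9.90). CAP2P1 had 0.189, 0.210 and 0.127 CPM in siControl and 1.29, 1.74 and 2.07 CPM in siPSF, with a log2 change of 3.27 and a count ratio of 9.53 (95% interval 7.38 to 12.5). The third siPSF library was the lowest for LOC645965 and the highest for CAP2P1, so the spread within siPSF did not follow one library. HMGB1P41 had 8, 19 and 15 counts in siControl and 101, 84 and 71 counts in siPSF, with a log2 change of 2.84 and a count ratio of 7.19 (95% interval 5.17 to 10.2). Its siPSF libraries again lay above all siControl libraries.

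For all 10 genes the 3 siPSF libraries lay above the 3 siControl libraries, and all 10 had a log2 change over 2, with a median of 2.96. Over all tested genes, 16.7% had every siPSF library above every siControl library and 0.259% had a log2 change over 2, but the 10 genes were selected on this difference and nothing is read from their count. The third siPSF library was the highest for 6 genes, the first for 2 and the second for 2. Of the 10, 7 passed edgeR's filter on low counts by their siControl values alone, whereas HMGB1P41, LOC105374296 and LOC112268227 passed it only through their siPSF values. LOC105376033 marked the lower edge at 2.55. Another 3 tested noncoding genes inside a host lay at or above it, among them RPL7AP22 in PKP4 (4.16) and LINC00311 in GSE1 (3.49), each with a mean level over all libraries under 1 CPM, as for all but 3 of the 10 genes. RPL7AP22 and LINC00311 also passed the filter only through their siPSF values. LOC107985002 in STXBP4, with 2.21, was below the lower edge.

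**Figure D2:**
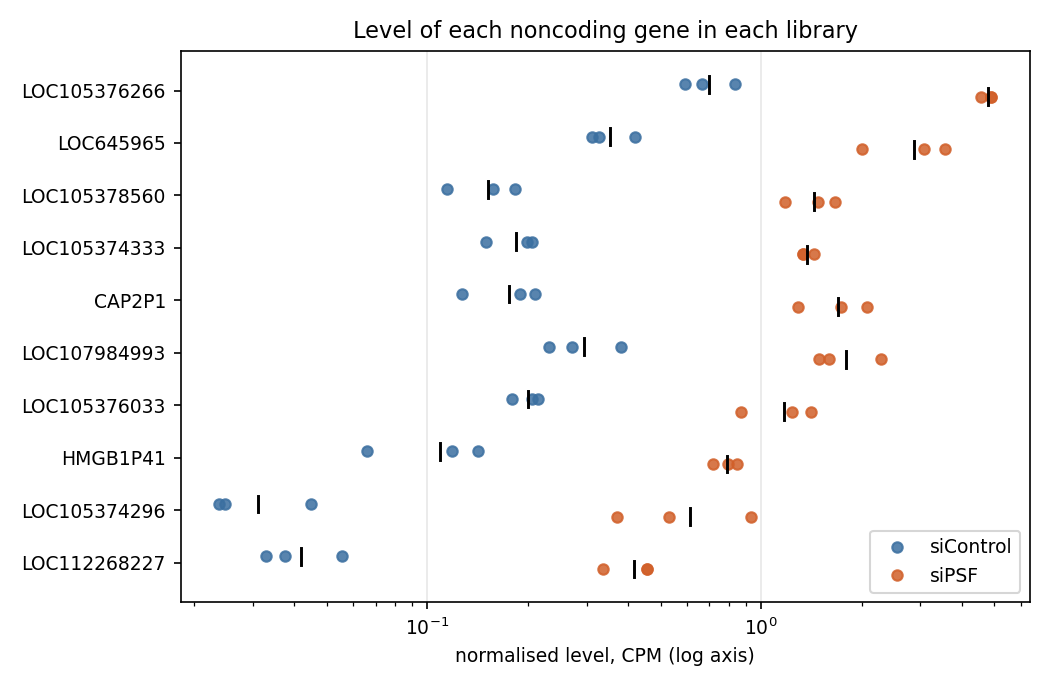
Each point is the level of a noncoding gene in 1 library in TMM-normalised CPM on a log axis, blue for siControl and orange for siPSF, and black bars mark the group means (n = 3). In every row the orange points lie to the right of the blue points, from 0.337 to 4.89 CPM in siPSF against 0.0238 to 0.834 CPM in siControl.

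The hosts did not share this increase. Of the 10 hosts, 6 were lower in siPSF at an adjusted p under 0.05 and 0 were higher (edgeR, Benjamini-Hochberg adjusted over all tested genes). Over all tested genes, 8.27% were called lower and 6.65% higher. No host was higher at an unadjusted p under 0.05 or by DESeq2's Wald test. All 10 hosts had a negative log2 change, with a median of -0.41 against 0.01 for all tested genes, and for 8 of 10 hosts the siPSF libraries lay below all siControl libraries, as in 17.8% of all tested genes. All 10 hosts were at least 100 kb long. Among the 369 other tested hosts of noncoding genes that were at least 100 kb long, 29.3% were called lower, with a median log2 change of -0.20. Among all 2767 tested protein-coding genes of at least 100 kb, hosts or not, 25.1% were called lower, with a median of -0.17. Of those under 100 kb, 4.65% were called lower. Lower levels were therefore frequent among long genes in general, and no difference of the 10 hosts from other long genes was tested.

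DENND1A, which encodes an activator of a small GTPase in endocytic recycling, had the largest decrease of the hosts. Its level was 61.9, 63.7 and 59.7 CPM in siControl and 33.0, 35.1 and 31.8 CPM in siPSF, with a log2 change of -0.89 (standard error 0.09, adjusted p = 7e-05 by edgeR). MGMT, which encodes a DNA repair enzyme that removes alkyl groups from guanine, had 17.4, 16.5 and 13.6 CPM in siControl and 9.07, 9.40 and 7.97 CPM in siPSF. Its log2 change was -0.85 (standard error 0.12, adjusted p = 0.001 by edgeR). In both hosts the groups were separated by more than the spread within either, and both calls held without each library in turn.

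ZCCHC7, which encodes a subunit of the TRAMP complex that prepares nuclear RNA for degradation, had 19.4, 18.1 and 20.1 CPM in siControl and 15.5, 11.8 and 10.7 CPM in siPSF (log2 change -0.60, adjusted p = 0.012 by edgeR). FOXN3, a forkhead transcription factor gene, had 98.5, 82.0 and 101 CPM in siControl and 71.8, 68.2 and 55.7 CPM in siPSF (log2 change -0.52, adjusted p = 0.0086 by edgeR). These groups did not overlap, and FOXN3 kept its call without each library in turn while ZCCHC7 lost it without the third siControl library (adjusted p = 0.058). DNAJC6, the gene of the neuronal protein auxilin that uncoats clathrin vesicles, had a log2 change of -0.42 (adjusted p = 0.038 by edgeR). GATAD2B, a gene of the NuRD chromatin complex, had a log2 change of -0.40 (adjusted p = 0.015 by edgeR). These calls were less firm: with 1 library left out in turn, DNAJC6 was called 3 times in 6 and GATAD2B 2 times in 6.

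The other 4 hosts were not called. ZNF704, a zinc finger gene, had a log2 change of -0.27 (adjusted p = 0.13 by edgeR) and MSI2, which encodes an RNA-binding protein of the Musashi family, had -0.24 (adjusted p = 0.11 by edgeR). XXYLT1, which encodes a glycosyltransferase that extends xylose on Notch receptors, had -0.09 (adjusted p = 0.50 by edgeR). RAB10, which encodes a small GTPase of vesicle transport, had 159, 145 and 178 CPM in siControl and 160, 136 and 179 CPM in siPSF, with a log2 change of -0.02 (standard error 0.11, adjusted p = 0.91 by edgeR). The RAB10 libraries of both groups covered the same range, while those of the lncRNA gene in its first intron lay far apart.

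**Figure D3:**
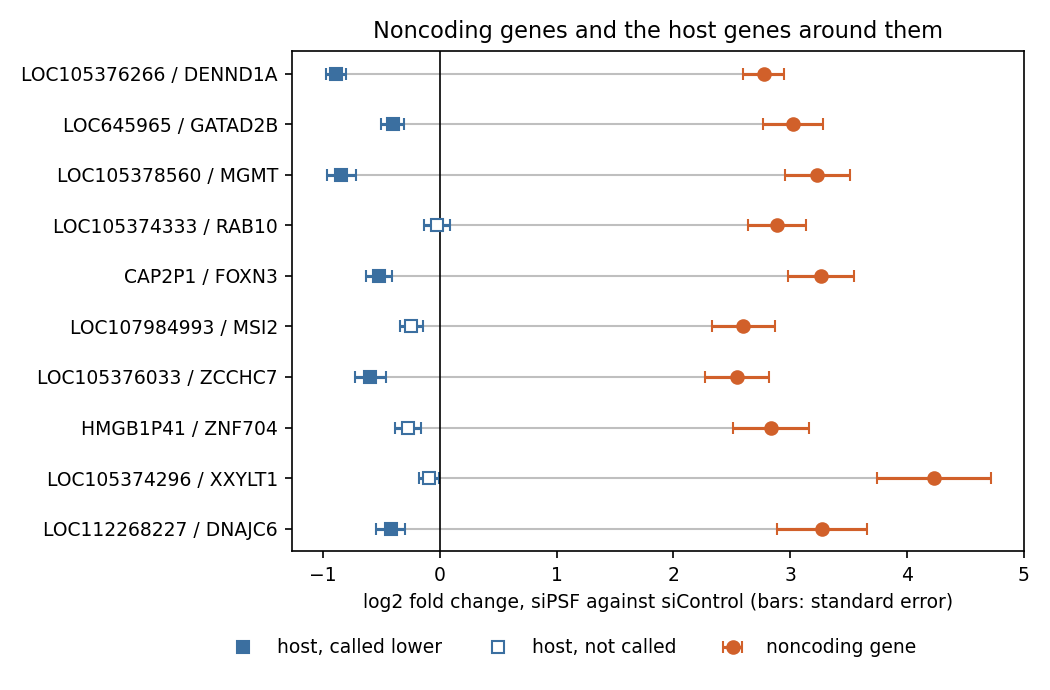
The horizontal axis is the log2 change of siPSF against siControl, with a standard error derived from the edgeR test statistic (3 libraries per group), for each noncoding gene (orange circles) and its host (blue squares, filled where called lower at an adjusted p under 0.05). The noncoding genes lie between 2.55 and 4.23 and the hosts between -0.89 and -0.02.

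The difference between the log2 changes of a noncoding gene and its host ran from 2.84 for LOC107984993 and MSI2 to 4.33 for LOC105374296 and XXYLT1. The level of each noncoding gene was also set against the reads of its host. The CPM of LOC105378560 was 0.985% ± 0.339 of that of MGMT in siControl and 16.4% ± 2.99 in siPSF (SD, n = 3 each). LOC105376266 was at 1.13% ± 0.232 of DENND1A in siControl and 14.4% ± 1.24 in siPSF (SD, n = 3 each), and LOC105376033 at 1.04% ± 0.0401 and 9.49% ± 3.19 of ZCCHC7 (SD, n = 3 each). For the other 7 genes the mean share stayed between 0.483% and 2.96% in siPSF. In absolute terms, LOC105376266 gained 4.08 CPM against a difference of -28.5 CPM for DENND1A, and LOC105378560 gained 1.29 CPM against -7.02 CPM for MGMT, both hosts that were called lower.

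Compared per length, on the deposited FPKM, the order of the shares differed. HMGB1P41, a short pseudogene, was at 2.06% ± 0.689 of ZNF704 in siControl and 18.8% ± 1.83 in siPSF, and CAP2P1 was at 0.931% ± 0.327 and 13.3% ± 4.79 of FOXN3 (SD, n = 3 each). LOC107984993 was at 0.113% ± 0.0169 and 0.724% ± 0.173 of MSI2 (SD, n = 3 each), the lowest mean share of the 10 in siPSF but not in siControl, where LOC112268227 was at 0.0553% ± 0.0141 of DNAJC6 (SD, n = 3). The means of the 10 genes in siPSF thus stayed at or below 18.8% of the FPKM of their host.

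The ratio of count to FPKM gives, up to a factor shared by the genes of a library, an implied length for a gene. A single fixed length per gene would give the same value in every library, which did not hold for all hosts below. For the pseudogenes this length was close to the span, at 2.04 kb against 1.83 kb for LOC645965. For LOC105374333 it was 0.86 kb of a 33.34 kb span, so that little of the span was counted. For LOC105378560 it was 13.06 kb, longer than its RefSeq span of 9.82 kb, and for LOC105374296 2.71 kb against 2.04 kb. The gene models counted by the authors may therefore differ from the positions given here for these 2 genes, and whether they reach a host exon is not known. For 6 hosts the length varied by less than 5% over the libraries, and for MGMT and XXYLT1 it varied within siPSF. For MSI2 it was 6.60, 6.40 and 6.59 kb in siControl and 5.90, 5.71 and 5.40 kb in siPSF. For ZCCHC7 it was 3.06, 3.0 and 2.95 kb in siControl and 3.16, 3.44 and 3.09 kb in siPSF. In both hosts the groups did not overlap, with opposite directions. For ZCCHC7 the gap, from 3.06 to 3.09 kb, was smaller than the spread within siPSF. How many of all genes have such separated groups was not determined, so nothing is read from these 2 hosts. For MSI2 the ratio of FPKM to count was higher in the siPSF libraries than in the siControl libraries.

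The annotation places the last exon of a short host transcript over the span of 4 of the 10 genes. The last exons of DENND1A-207, MGMT-202, MSI2-215 and ZCCHC7-201 overlap LOC105376266, LOC105378560, LOC107984993 and LOC105376033. Among 511 other tested noncoding genes within 1 intron and in the same range of lengths, 12.1% overlap such an exon, but the 10 genes were longer (median 10.7 kb against 1.45 kb) and lay in longer introns (68.4 kb against 21.7 kb). MGMT-202 ends at the same base as LOC105378560, and ZCCHC7-201 ends 52 bases past LOC105376033. LOC112268227 overlaps a GENCODE lncRNA on the strand of DNAJC6, and LOC105374296 lies within XXYLT1-AS2, which GENCODE annotates on the strand opposite to XXYLT1. Reads of the noncoding gene and of host RNA that includes the same intronic sequence cannot be told apart in this table.

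The start and the annotated end of LOC105378560 show how close this gene is to its host. The first sequence below (GRCh38, chr10:129708014-129708073, plus strand) has the end of the MGMT exon in capitals, and the lncRNA gene begins 6 bases after it. The second (chr10:129717831-129717860, plus strand) has in capitals an ATTAAA, a common variant of the poly(A) signal, that begins 25 bases before the shared end of MGMT-202 and the gene. The third (chr1:65318844-65318873, plus strand) shows the AATAAA, the most frequent poly(A) signal, that begins 22 bases before the end of the GENCODE lncRNA over LOC112268227.

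LOC105378560 start: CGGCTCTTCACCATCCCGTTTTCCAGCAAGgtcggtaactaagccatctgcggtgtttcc
LOC105378560 end: gtgtttatttgtATTAAAgcaatgcattta
LOC112268227 region: accagaacttaaAATAAAagttgaaggaaa

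AATAAA and ATTAAA were searched on the transcript strand in the last 40 bases of these 5 transcripts. Neither was found for DENND1A-207, MSI2-215 or ZCCHC7-201, which says only that these letters are not in that window. Whether any of these sites was used in the cells was not tested.

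Reads of a pseudogene can also be shared with its parent gene. CAP2P1 aligned to the CAP2 transcript with 82.0% identity and LOC645965 to that of PLIN2, which codes for a lipid droplet protein, with 91.2%. Windows of 50 bases, the length of each read in the study, were identical to the parent transcript in 0.6% of CAP2P1 and in 1.2% of LOC645965. The study sequenced paired reads, and the windows do not take the pairing into account. The pairs below, each read on the minus strand of GRCh38 for the pseudogene (chr14:89290203-89290252 and chr1:153852109-153852158), show a window with the median number of differences, which are in capitals.

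CAP2P1: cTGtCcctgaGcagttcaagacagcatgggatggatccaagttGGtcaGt
CAP2: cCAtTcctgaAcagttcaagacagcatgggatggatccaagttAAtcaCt
LOC645965: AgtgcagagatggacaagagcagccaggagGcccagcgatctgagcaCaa
PLIN2: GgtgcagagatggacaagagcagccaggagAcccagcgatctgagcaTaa

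These windows differ at 7 and at 3 bases, so a read from most of either pseudogene carries differences from the parent. Both parents had a negative log2 change. CAP2, which codes for an actin regulator, had 5.58 ± 0.288 CPM in siControl against 4.22 ± 0.576 CPM after siPSF (SD, n = 3 per group), at a log2 change of -0.41 that was not called (adjusted p = 0.073 by edgeR). PLIN2, which was identified as a parent by alignment after its values were seen, had 77.9 ± 4.04 and 64.5 ± 1.62 CPM (SD, n = 3 per group), at a log2 change of -0.27 (adjusted p = 0.041 by edgeR). The lower level of PLIN2 lost its call in 5 of the 6 fits without 1 library.

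HMGB1, the parent of HMGB1P41 and a gene of an abundant chromatin protein, had 389 ± 26.9 and 335 ± 39.3 CPM (SD, n = 3 per group), at a log2 change of -0.22 that was not called (adjusted p = 0.17 by edgeR). HMGB1P41 shared 0 of its 334 windows with the HMGB1 transcript, at 77.5% identity. Over the whole genome, between 95.3% (LOC105374333) and 100% of the 50-base windows in the full spans of the 10 genes occurred once. Some spans, such as that of LOC105374333 (implied length 0.86 kb of 33.34 kb), are mostly sequence that was not counted. These shares therefore do not show how unique the counted reads were.

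Other noncoding genes inside the same hosts were not called. The table holds 3 of them, in 3 of the hosts, and 0 were called (edgeR's quasi-likelihood test, 0 at an unadjusted p under 0.05, 0 by DESeq2). FOXN3-AS1 had 5.21, 5.36 and 4.21 CPM in siControl and 5.16, 4.61 and 6.26 CPM in siPSF, with a log2 change of 0.12 (adjusted p = 0.66 by edgeR), in the same host as CAP2P1. CKS1BP7, a pseudogene in ZNF704, had 0.830, 0.817 and 0.532 CPM in siControl and 0.817, 0.853 and 0.781 CPM in siPSF, with a log2 change of 0.17 (adjusted p = 0.69 by edgeR). LOC102724416 in DNAJC6 had a log2 change of 0.11 (standard error 0.29, adjusted p = 0.84 by edgeR). All these groups overlapped, at mean levels from 0.455 to 5.34 CPM.

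With the 10 genes left out, 945 noncoding genes inside a protein-coding gene were tested, of which 111 (11.7%) were called higher and 41 (4.34%) lower, with a median log2 change of 0.11. The balance depended on the scaling: after each library's FPKM values were scaled to an equal sum, limma called 84 of them higher and 87 lower. The same rescaling called 564 of all tested genes higher and 3573 lower. On FPKM without rescaling, limma called 96 of the 945 genes higher and 52 lower. On counts without the second siControl library, 65 of the 945 were higher and 19 lower, and without the third 66 and 23. Of the 3539 noncoding genes not inside one, 158 (4.46%) were higher and 301 (8.51%) lower, with a median of -0.05. Among the 543 genes that, like the 10, lay within 1 intron of the canonical host transcript, 14.5% were higher and 2.76% lower. By strand, 15.9% of 289 genes on the strand of the host and 8.23% of 401 genes on the opposite strand were higher. These shares are descriptions, and the differences between the classes were not tested.

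**Figure D4:**
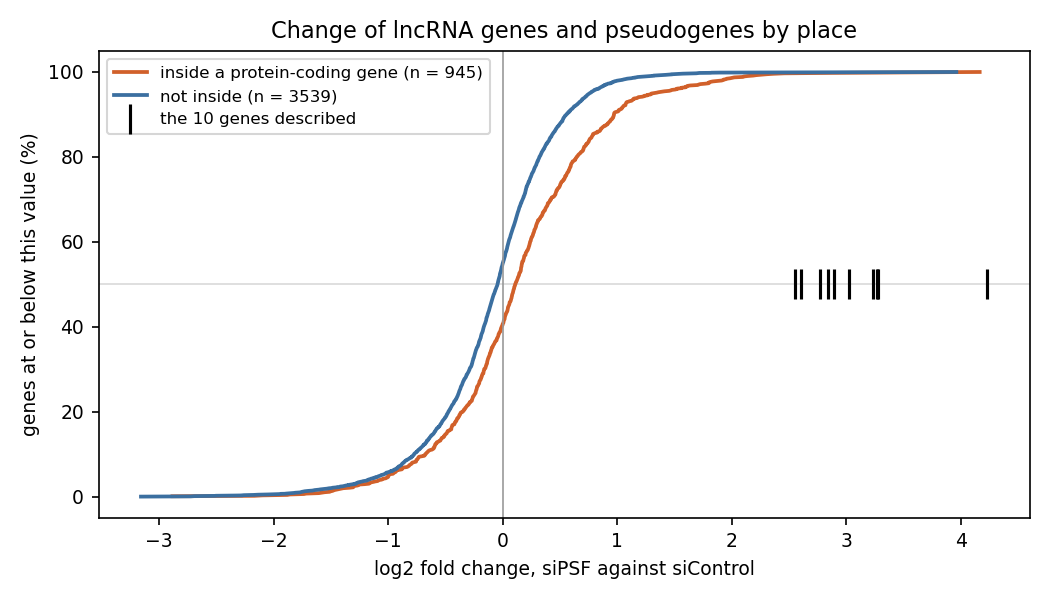
The curves give the percentage of tested lncRNA genes and pseudogenes at or below each log2 change of siPSF against siControl, orange for the 945 genes inside a protein-coding gene and blue for the 3539 that are not inside one. The black ticks are the 10 genes, left out of the orange curve and placed at mid-height only to be visible, between 2.55 and 4.23.

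Across this class, the call of the inner gene was set beside that of its host, again with the 10 genes left out. Where the inner gene was called higher, 23.2% of 99 pairs had a host called lower, and where it was not called, 18.6% of 699 pairs did. Where the inner gene was called lower, the share was 27.3% of 33 pairs. Hosts with several inner genes enter more than once, and no test was made.

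Intronic and other short-lived nuclear RNA is degraded by the RNA exosome with its TRAMP, NEXT and PAXT partners. Of 22 tested genes of this machinery, 0 were called higher and 1 lower (edgeR's quasi-likelihood test, with 5 higher at an unadjusted p under 0.05 and 3 higher by DESeq2), with a median log2 change of 0.05 against 0.01 for all tested genes, of which 6.65% were called higher and 8.27% lower. The gene called lower was ZCCHC7, itself the host of LOC105376033. TENT4B, a poly(A) polymerase of TRAMP, had a log2 change of 0.45 (adjusted p = 0.053 by edgeR), and MPHOSPH6, an exosome cofactor, had 0.40 (adjusted p = 0.053 by edgeR).

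Of 22 tested genes for the cleavage and polyadenylation of RNA and for the U1 particle, which keeps early poly(A) sites in introns from being used, 3 were called higher and 0 lower (edgeR, with 0 lower at an unadjusted p under 0.05 and 0 by DESeq2), with a median log2 change of 0.08, beside 6.65% higher and 8.27% lower among all tested genes. PAPOLA, the canonical poly(A) polymerase, was at 0.43 (adjusted p = 0.016 by edgeR). CPSF3, the endonuclease of the cleavage complex, was at 0.47 (adjusted p = 0.018 by edgeR), and CSTF2T, a cleavage stimulation factor, was at 0.29 (adjusted p = 0.049 by edgeR). These calls depended on single libraries: 0 genes were called higher without the second siControl library, and 1 was without the third siControl or the first siPSF library. Of the relatives of PSF, PSPC1 was higher, from 43.6 ± 5.75 to 94.9 ± 3.30 CPM (SD, n = 3 each, log2 change 1.12, adjusted p = 5e-05 by edgeR), and NONO was not called (log2 change 0.21, adjusted p = 0.10 by edgeR).

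The cell type label was checked with 10 markers of the sympathoadrenal lineage, all of which were in the table, with a summed level of 5210 to 5810 CPM in siControl and 4660 to 5740 CPM in siPSF. Of these, TH (0.741 and 0.320 CPM, log2 change -1.20, adjusted p = 0.025 by edgeR) and DBH (log2 change -0.68, adjusted p = 0.0024 by edgeR) were called lower and GATA3 (log2 change 0.30, adjusted p = 0.032 by edgeR) higher. Of 10 markers of other cell types, 5 were in the table, summing to 6.45 to 8.21 CPM in siControl and 10.6 to 11.9 CPM in siPSF, and GFAP, AQP4, MBP, PTPRC and PECAM1 were not among its rows. Among the 5, EPCAM was called higher (log2 change 0.86, adjusted p = 0.014 by edgeR). The part of these markers in the differences of the 10 genes was not tested, and in bulk RNA more cells with a transcript and more of it per cell cannot be told apart.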

How the data were processed

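Poly(A) RNA-seq of 3 siControl and 3 siPSF libraries of SH-SY5Y cells was analysed. The authors deposited a table of raw read counts per RefSeq gene on GRCh38. The same table holds FPKM values, which the authors normalised for gene length and mapped reads. The paper names Bowtie 2 and TopHat, whereas the submitters' processing notes name Trimmomatic, HISAT2 2.1.0 and StringTie 2.1.3b. The kit is a TruSeq RNA kit in the paper and a stranded one in the labels, and the use of strand in counting is not given in the sources used here, so sense and antisense reads may be mixed. The smallest count is 1, and a gene with 0 reads in any library is not analysed here.

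Counts were filtered with filterByExpr (0.0838 CPM in at least 3 libraries), scaled by TMM and tested by the quasi-likelihood method of edgeR on all 6 libraries, with Benjamini-Hochberg adjustment over 19694 genes and a threshold of 0.05. The standard errors given are the size of the log2 change divided by the square root of the F statistic of this test. The biological coefficient of variation was 12.6%. The smallest chi-square per degree of freedom between replicates was 22.61, so no library was a copy of another. On simulated data of 19694 genes, of which 200 were changed, 71.1% of 2-fold and 100% of 4-fold changes were called, and 4% of calls were false. The simulation changed fewer genes than were called in the data, evenly up and down. It took the spread of each gene from the overall trend, so these rates need not hold for the real data. Count ratios carry exact binomial intervals. Positions came from RefSeq (GRCh38.p14), which held 5391 of 5807 noncoding genes of the table, exons from GENCODE 44, and parents from blastn 2.17.0. Fits ran in R 4.3.3 with edgeR 4.0.16, DESeq2 1.42.0 and limma 3.58.1, and tables in Python 3.11.15 with scipy 1.17.1, numpy 2.4.6 and pandas 2.3.3.

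The genes and lists were chosen with earlier results of these data known. Named were the 10 genes, their hosts, SFPQ, the parents, the other noncoding genes in the same hosts, noncoding genes inside a host with a mean of at least 1 CPM at or above the lowest of the 10 (there were 0), and the 3 genes of smallest p in each list. PLIN2 and the genes beside the lower edge were chosen after their values were seen. Alternatives were DESeq2's size factors and Wald test, no filter, a replicate block, leaving out each library, and limma on log2(FPKM + 0.5), with rescaling, and on log2(FPKM + 0.1). The ratio of mean FPKM was added after the data were seen.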

Additional observations from a re-analysis of the deposited data

How the results depend on the processing

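The log2 changes of the 10 genes kept their sign and stayed between 2.39 and 4.58 under the 10 other settings on counts, and their median was 2.88 to 3.11 without 1 library and 2.91 as the ratio of mean FPKM without an offset. The genes were selected for a large difference in these same counts, so nothing is read from the kept sign. On log2(FPKM + 0.5), the same after rescaling, and log2(FPKM + 0.1), the median of the 10 genes was 0.952, 0.908 and 1.88, and that of gene minus host 1.62, 1.68 and 2.53; the offset of 0.5 exceeds every siControl FPKM of the 10 genes, of which the highest is 0.33, so smaller values follow from the construction. The same 3 settings called 804 genes higher and 1948 lower (70.8% lower of those called), 564 and 3573 (86.4%), and 837 and 2002 (70.5%), against 1310 and 1628 (55.4%) on counts, and they moved the median of all genes to -0.04, -0.12 and -0.06. Rescaling called 84 noncoding genes inside a host higher and 87 lower, and gave log2 changes of -0.449 for CAP2 and -0.473 for HMGB1, both then called, and of -0.002, -0.070 and -0.002 for LOC102724416, FOXN3-AS1 and CKS1BP7. CAP2 was also called by DESeq2's Wald test (-0.416). The 3′ end list had 1, 0 and 1 genes higher and 1, 3 and 1 lower on the FPKM settings, and the decay list had 3 higher by DESeq2. Restricted to the strand of the host, the opposite strand, or a mean of at least 1 CPM, 46, 33 and 59 noncoding genes inside a host were higher and 14, 17 and 21 lower, from fewer genes tested.

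Without 1 library, 3 to 7 hosts were called lower, with the fewest when the third siControl library was left out. The log2 change ran from -0.121 to 0.074 for RAB10, -0.517 to -0.324 for CAP2, -0.102 to 0.348 for LOC102724416, -0.011 to 0.212 for FOXN3-AS1 and -0.015 to 0.274 for CKS1BP7. Between 65 and 103 noncoding genes inside a host were higher and 19 to 42 lower, with 65 and 19 without the second and 66 and 23 without the third siControl library. The decay list had 0 to 2 higher and 0 to 1 lower, and the 3′ end list 0 to 2 higher. The cause of these differences was not tested.

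The deviations of same-numbered libraries from their group means had correlations of -0.04, 0.21 and 0.10, against -0.28 to 0.18 for libraries of different number. With 3 libraries per group, these values cannot decide whether the numbers pair the samples. With a replicate block, 5 hosts, 1389 genes higher, 1640 lower and 3 decay genes higher were called.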
